A study of Mus musculus with 8 samples.

Results

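The collagen gene family was examined in total liver RNA from 8 male mice of 6 weeks, each hybridised to 1 Affymetrix array. TAK1, a kinase encoded by Map3k7, was deleted in the liver parenchymal cells (LPC) of every mouse. A first group of 4 had an LPC deletion of caspase 8, an initiator of apoptosis, in addition (Tak1/Casp8). A second group of 4 was Rip3-/-, without the necroptosis kinase RIP3 (Tak1/Rip3). The comparison asks how gene expression differs when apoptosis or necroptosis is blocked in TAK1-deficient liver. By the labels caspase 8 was deleted in LPC, whereas Rip3-/- is not limited to a cell type. The groups thus differ in the genotype of other liver cells too, and this cannot be told apart from the difference in LPC. Which promoter or Cre line made the LPC deletions is not given in the labels used here. No TAK1-intact liver was analysed here, so no direction can be set against normal liver. Members were the genes whose platform symbol begins with Col and a digit. There were 41 such symbols among the 19560 genes measured. One of them, Col4a3bp (now Cert1), encodes a ceramide transfer protein and is no collagen. It differed by 0.22 on the log2 scale (limma adjusted p = 0.302) and is left out of the counts below. The remaining 40 were 11 fibrillar collagens, 8 collagens of the basement membrane and 21 of other types.

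Collagens are secreted proteins of 3 chains wound into a triple helix. Fibrillar collagens form the banded fibres of connective tissue and scars. Type IV chains form the sheet-like network of basement membranes, and type VI forms beaded filaments that link cells to the surrounding fibres. In liver most collagen is made by hepatic stellate cells, portal fibroblasts and the myofibroblasts that both can become, with a contribution of endothelial cells to basement membrane types. Scarring of the liver is known for a rise of types I and III.

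Each value is a log2 intensity normalised by RMA, taken per gene as the median over its probe sets (exon-sized groups of probes), and differences are given as the Tak1/Casp8 mean less the Tak1/Rip3 mean. Array medians lay between 8.11 and 8.22. Tak1/Casp8 replicate 4 correlated least with the arrays of its group (mean r 0.985), followed by Tak1/Rip3 replicate 2 (0.987). Casp8 differed by -1.31 (SE 0.11, adjusted p by limma = 0.000123) and Ripk3 by 0.98 (SE 0.17, adjusted p = 0.00782), and Map3k7, targeted in both groups, by -0.08. Hepatocyte markers were high in all arrays, with means of 13.91 for albumin (Alb) in the Tak1/Casp8 livers and 13.95 in the Tak1/Rip3 livers. The labels name no batch, litter or separate culture, so p-values measure only the spread between these mice.

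Of the 40 collagens, 2 were called by limma (adjusted p under 0.05 over all 19560 genes), against 6.69% of all genes. Both, Col6a3 and Col4a1, were lower in the Tak1/Casp8 livers, where 4.05% of all genes were called lower. No collagen was called higher, with 3 at an unadjusted p under 0.05, against 1820 of all 19560 genes higher at that level. In either direction 21.1% of all genes had an unadjusted p under 0.05, the background for each such count of genes below. The share called among the collagens is thus near the background. The median difference was -0.01 over the 40 collagens and 0.01 over all genes. By class, limma called 0 of 11 fibrillar collagens, 1 of 8 basement membrane collagens and 1 of 21 others, with medians of 0.14, -0.09 and -0.01. Each of these class medians changed sign under some alternative. Without Tak1/Casp8 replicate 4, 1 collagen was called (Col6a3), and without both that array and Tak1/Rip3 replicate 2 the same 2 were called. With unmoderated variances, separate for each group, 0 collagens and 0.588% of all genes were called.

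**Figure D1:**
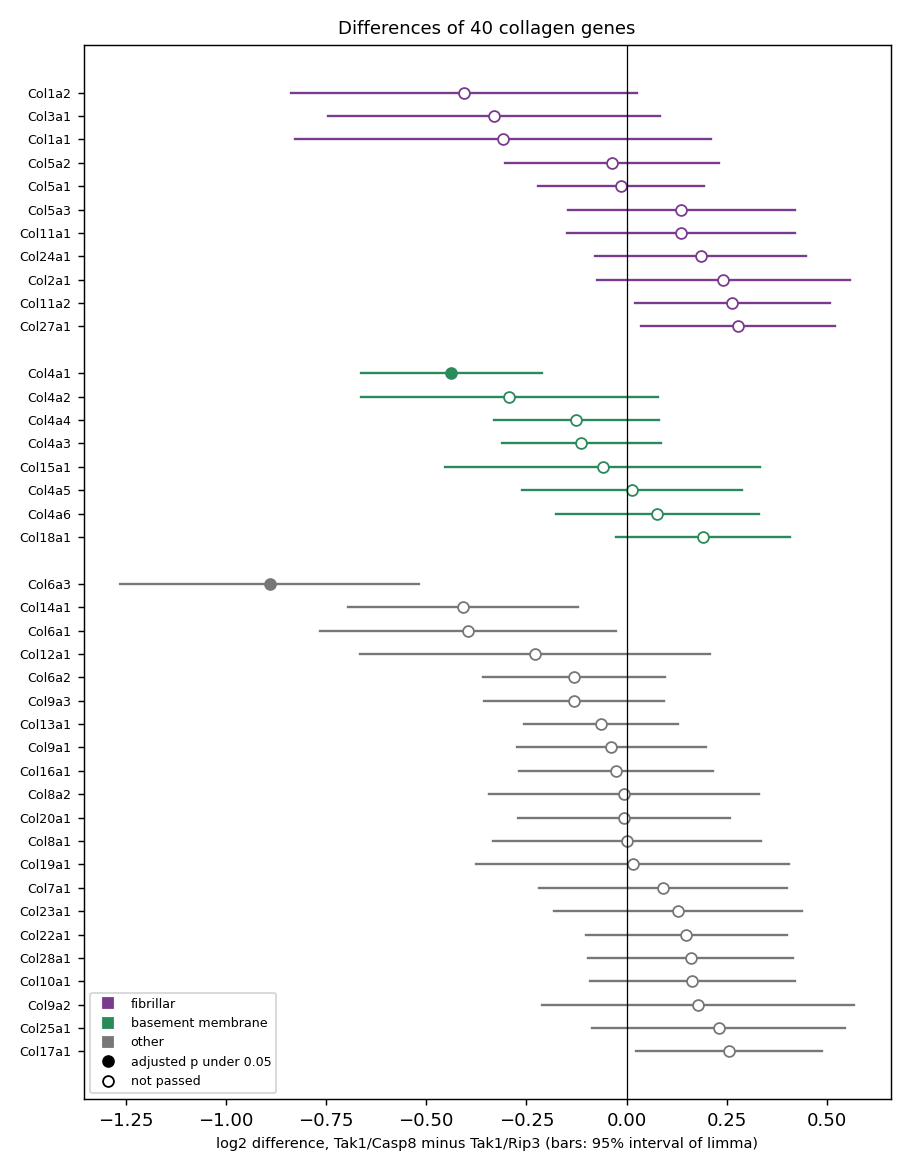
Log2 difference (Tak1/Casp8 minus Tak1/Rip3, n = 4 per group) of each of 40 collagens by class, with the 95% interval from limma as a bar and filled points for an adjusted p under 0.05. Col6a3 (-0.89) and Col4a1 (-0.44) are the filled points, and the differences run from -0.89 to 0.28.

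Type VI collagen held the member with the largest difference. Col6a3 encodes the longest of the main chains of the beaded filament, from whose end the fragment endotrophin is cut. Its values were 10.00, 9.99, 9.89 and 10.12 in the Tak1/Rip3 livers and 9.42, 8.98, 9.41 and 8.62 in the Tak1/Casp8 livers. All 4 Tak1/Casp8 arrays lay below all 4 Tak1/Rip3 arrays, and Tak1/Casp8 replicates 2 and 4 were the lowest. The difference was 1.85-fold (-0.89 ± 0.17 SE, n = 4 a group, 95% interval -1.26 to -0.52, limma adjusted p = 0.0124). It was -0.73 without Tak1/Casp8 replicate 4 and passed under each omission of 1 array (adjusted p up to 0.0418).

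The other type VI chains did not pass. Col6a1, the first chain, had values of 9.36, 8.90, 9.22 and 9.17 in the Tak1/Rip3 livers and 8.93, 8.75, 9.08 and 8.31 in the Tak1/Casp8 livers. The groups overlapped, with Tak1/Casp8 replicate 4 the lowest of the 8 (difference -0.40 ± 0.17 SE, n = 4 a group, adjusted p by limma = 0.206). The difference was -0.24 without that array and -0.08 with the brightest probe set. Col6a2, the second chain and the neighbour of Col6a1 on its chromosome, lay between 8.63 and 8.88 in the Tak1/Rip3 livers and between 8.52 and 8.82 in the Tak1/Casp8 livers. Its difference was -0.13 with a 95% interval of -0.36 to 0.10. It was -0.24 with the mean over probe sets and -0.42 with the brightest probe set (limma adjusted p = 0.179). With the median over probe sets the interval of Col6a3 and that of Col6a2 did not overlap, but the difference between the chains was not tested.

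The start region of Col6a3 is shown because it belongs to the member with the largest difference. It spans 300 bases of GRCm38.p6 (chr1:90843922-90844221, minus strand), from 250 bases before the annotated start to 50 after it, from RefSeq. The capitals mark matches to CAGAC or its reverse GTCTG, the core of the element bound by Smad factors.
Col6a3: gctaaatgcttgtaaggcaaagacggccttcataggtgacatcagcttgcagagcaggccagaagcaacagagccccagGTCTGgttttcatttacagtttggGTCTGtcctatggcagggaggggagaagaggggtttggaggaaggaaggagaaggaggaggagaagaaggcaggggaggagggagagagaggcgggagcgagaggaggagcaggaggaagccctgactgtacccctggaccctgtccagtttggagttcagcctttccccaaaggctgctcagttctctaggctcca
This window held 2 such matches and none to the CCAAT box (CCAAT), the GC box (GGGCGG) or the TATA box (TATAAA), each searched on both strands.

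Among the basement membrane collagens Col4a1 was called. It encodes the first chain of the ubiquitous type IV network. The values were 9.51, 9.31, 9.44 and 9.36 in the Tak1/Rip3 livers and 9.11, 8.88, 9.07 and 8.81 in the Tak1/Casp8 livers. The groups did not overlap, and the arrays within each group lay close together. The difference was 1.35-fold (-0.44 ± 0.10 SE, n = 4 a group, 95% interval -0.66 to -0.21, limma adjusted p = 0.0298). This call was not stable: it was lost without Tak1/Casp8 replicate 2 or 4 or Tak1/Rip3 replicate 1, 3 or 4 (adjusted p = 0.0545 to 0.0912), when the arrays were shifted to 1 median (0.0510) and when a gene was its mean, brightest or brighter probe sets (0.0722 to 0.102). It was lost with unmoderated variances too (0.105). The direction was the same in all of these.

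Col4a2 encodes the second chain, which joins the first in a common helix. Its values were 9.42, 8.84, 9.30 and 9.63 in the Tak1/Rip3 livers and 9.16, 8.99, 9.14 and 8.74 in the Tak1/Casp8 livers. The groups overlapped through Tak1/Rip3 replicate 2, which lay within the Tak1/Casp8 range. The difference of -0.29 did not pass (SE 0.17, n = 4 a group, adjusted p by limma = 0.358), and it ranged from -0.18 (without Tak1/Rip3 replicate 4) to -0.45 (without Tak1/Rip3 replicate 2) on omission of 1 array. With the mean over probe sets the Col4a2 difference was -0.39 (limma adjusted p = 0.0921), against -0.29 for Col4a1. With the brightest probe set it was -0.54, against -0.38 for Col4a1. Which chain had the larger difference thus depended on the summary of probe sets. Whether Col4a1 and Col4a2 differed from each other was not tested.

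Col4a1 and Col4a2 lie head to head and are transcribed in opposite directions from a common start region, which is why both windows are shown. In RefSeq (GRCm38.p6) the annotated starts are 21 bases apart, at position 11312826 for Col4a1 on the minus strand and 11312805 for Col4a2 on the plus strand. The windows of Col4a1 (chr8:11312777-11313076) and Col4a2 (chr8:11312555-11312854) share 78 bases, in capitals, each read 5′ to 3′ on its own strand.
Col4a1: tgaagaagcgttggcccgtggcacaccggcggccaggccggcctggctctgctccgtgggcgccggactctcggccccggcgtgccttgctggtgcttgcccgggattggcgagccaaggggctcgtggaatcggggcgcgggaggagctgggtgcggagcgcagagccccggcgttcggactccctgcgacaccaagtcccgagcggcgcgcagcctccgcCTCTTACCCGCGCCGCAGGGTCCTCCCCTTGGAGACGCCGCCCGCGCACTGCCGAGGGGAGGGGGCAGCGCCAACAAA
Col4a2: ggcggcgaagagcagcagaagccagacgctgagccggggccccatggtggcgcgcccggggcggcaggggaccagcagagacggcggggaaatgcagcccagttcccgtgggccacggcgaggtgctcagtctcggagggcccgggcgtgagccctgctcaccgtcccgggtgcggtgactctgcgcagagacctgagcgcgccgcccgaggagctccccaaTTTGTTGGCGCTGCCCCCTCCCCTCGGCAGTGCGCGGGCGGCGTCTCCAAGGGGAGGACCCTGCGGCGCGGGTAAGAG
In capitals each window shows the opposite strand of the same stretch. The Col4a1 window held 1 CCAAT box, 1 GC box and no TATA box, and the Col4a2 window 1, 3 and none.

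The other type IV pairs, which are known from specialised basement membranes such as that of the kidney filter, did not pass. Col4a3 and Col4a4, also neighbours, differed by -0.11 (95% interval -0.31 to 0.09) and -0.13 (-0.33 to 0.08). Col4a5 and Col4a6, a further neighbouring pair, differed by 0.01 and 0.08. Col4a6 lay below the lower quartile of all probe sets (6.55 to 6.61 across arrays) in both groups, so its value says little.

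The multiplexins XV and XVIII sit at the outer face of basement membranes, and the end of the Col18a1 product is released as endostatin. Col18a1, which hepatocytes are known to express, was 10.38, 10.51, 10.45 and 10.35 in the Tak1/Rip3 livers and 10.67, 10.67, 10.70 and 10.40 in the Tak1/Casp8 livers. Tak1/Casp8 replicates 1 to 3 lay above all Tak1/Rip3 arrays and replicate 4 among them. The difference of 0.19 did not pass (SE 0.10, n = 4 per group, 95% interval -0.03 to 0.41, limma adjusted p = 0.303). Col15a1 ranged from 8.42 to 8.87 in the Tak1/Rip3 livers and from 8.17 to 8.89 in the Tak1/Casp8 livers. Its difference was -0.06, with an interval of -0.45 to 0.33, and changed sign with the choice of arrays.

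None of the fibrillar collagens passed. Col1a1 and Col1a2 encode the chains of type I collagen, the main collagen of scars. Col1a1 was 10.99, 10.67, 10.77 and 10.78 in the Tak1/Rip3 livers and 10.91, 10.33, 10.96 and 9.76 in the Tak1/Casp8 livers. Tak1/Casp8 replicates 1 and 3 lay within the Tak1/Rip3 range, whereas replicate 2 was lower and replicate 4 lower still. The SD was 0.56 in the Tak1/Casp8 livers and 0.14 in the Tak1/Rip3 livers. The difference was -0.31 ± 0.23 SE (n = 4 a group, adjusted p by limma = 0.502), with a 95% interval of -0.83 to 0.21. It was -0.07 without Tak1/Casp8 replicate 4 and -0.46 without replicate 3.

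Col1a2 was 10.49, 10.22, 10.52 and 10.36 in the Tak1/Rip3 livers and 10.30, 9.88, 10.37 and 9.40 in the Tak1/Casp8 livers. The order within the Tak1/Casp8 group was the same as for Col1a1. The difference was -0.41 ± 0.19 SE (n = 4 per group, 95% interval -0.84 to 0.03, limma adjusted p = 0.266), and -0.21 without replicate 4. Col3a1, the single chain of type III collagen, was 10.27, 10.42, 10.25 and 10.48 in the Tak1/Rip3 livers and 10.39, 10.16, 10.14 and 9.40 in the Tak1/Casp8 livers. Here too replicate 4 stood lowest and replicate 1 within the other group. The difference was -0.33 (SE 0.19, n = 4 a group, adjusted p by limma = 0.351). It was -0.12 without replicate 4 and -0.08 with the brightest probe set.

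The start region of Col1a2 (GRCm38.p6, chr6:4505368-4505667, plus strand, from RefSeq) is shown as that of a type I chain, since no window for Col1a1 was used. Capitals mark matches on either strand to the CCAAT box (CCAAT or ATTGG), the GC box (GGGCGG or CCGCCC), the TATA box (TATAAA or TTTATA) and the Smad core (CAGAC or GTCTG).
Col1a2: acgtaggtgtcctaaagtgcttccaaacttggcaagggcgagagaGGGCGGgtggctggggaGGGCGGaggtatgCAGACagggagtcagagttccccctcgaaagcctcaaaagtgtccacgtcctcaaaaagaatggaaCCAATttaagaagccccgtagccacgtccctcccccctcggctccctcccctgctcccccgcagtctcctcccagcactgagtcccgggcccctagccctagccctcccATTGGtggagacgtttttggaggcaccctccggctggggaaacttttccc
It held 2 matches to the CCAAT box, at positions -109 and 0 counted from the annotated start as 0. There were 2 matches to the GC box, 1 to the Smad core and none to the TATA box. Over 35 windows of 32 collagens, 34.3% held a CCAAT box, against 37.4% of all 32851 windows of the same length. A GC box was in 57.1% against 35.7%, a TATA box in 14.3% against 13.6% and a Smad core in 54.3% against 49.6%. A match is a description of the letters and no measure of binding.

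Type V chains regulate the diameter of type I fibres. Col5a1 lay between 8.07 and 8.38 in the Tak1/Rip3 livers and between 8.16 and 8.23 in the Tak1/Casp8 livers, and Col5a2, the neighbour of Col3a1, between 7.72 and 8.09 and between 7.65 and 8.05. The ranges of the groups overlapped for both chains. The differences were -0.01 (95% interval -0.22 to 0.19) and -0.04 (-0.30 to 0.23), and those of both genes changed sign with the scaling. They were 0.05 and -0.16 with the mean over probe sets. With the brightest probe set they were -0.38 and -0.47 (limma adjusted p = 0.474 and 0.262). The third chain, Col5a3, differed by 0.14.

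The remaining fibrillar collagens are known from cartilage and other tissues, and all had small positive differences that did not pass. Col27a1 differed by 0.28 (95% interval 0.04 to 0.52, limma adjusted p = 0.171) and Col11a2 by 0.26 (0.02 to 0.51, adjusted p = 0.198). These are the 2 fibrillar members with an unadjusted p under 0.05, a level reached by 21.1% of all genes. Col2a1, the main cartilage collagen, differed by 0.24, Col24a1 by 0.18 and Col11a1 by 0.14. When each gene was read from its brightest probe set, Col11a2 and Col9a2, a chain of the cartilage collagen IX, were called higher and Col6a3 lower.

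**Figure D2:**
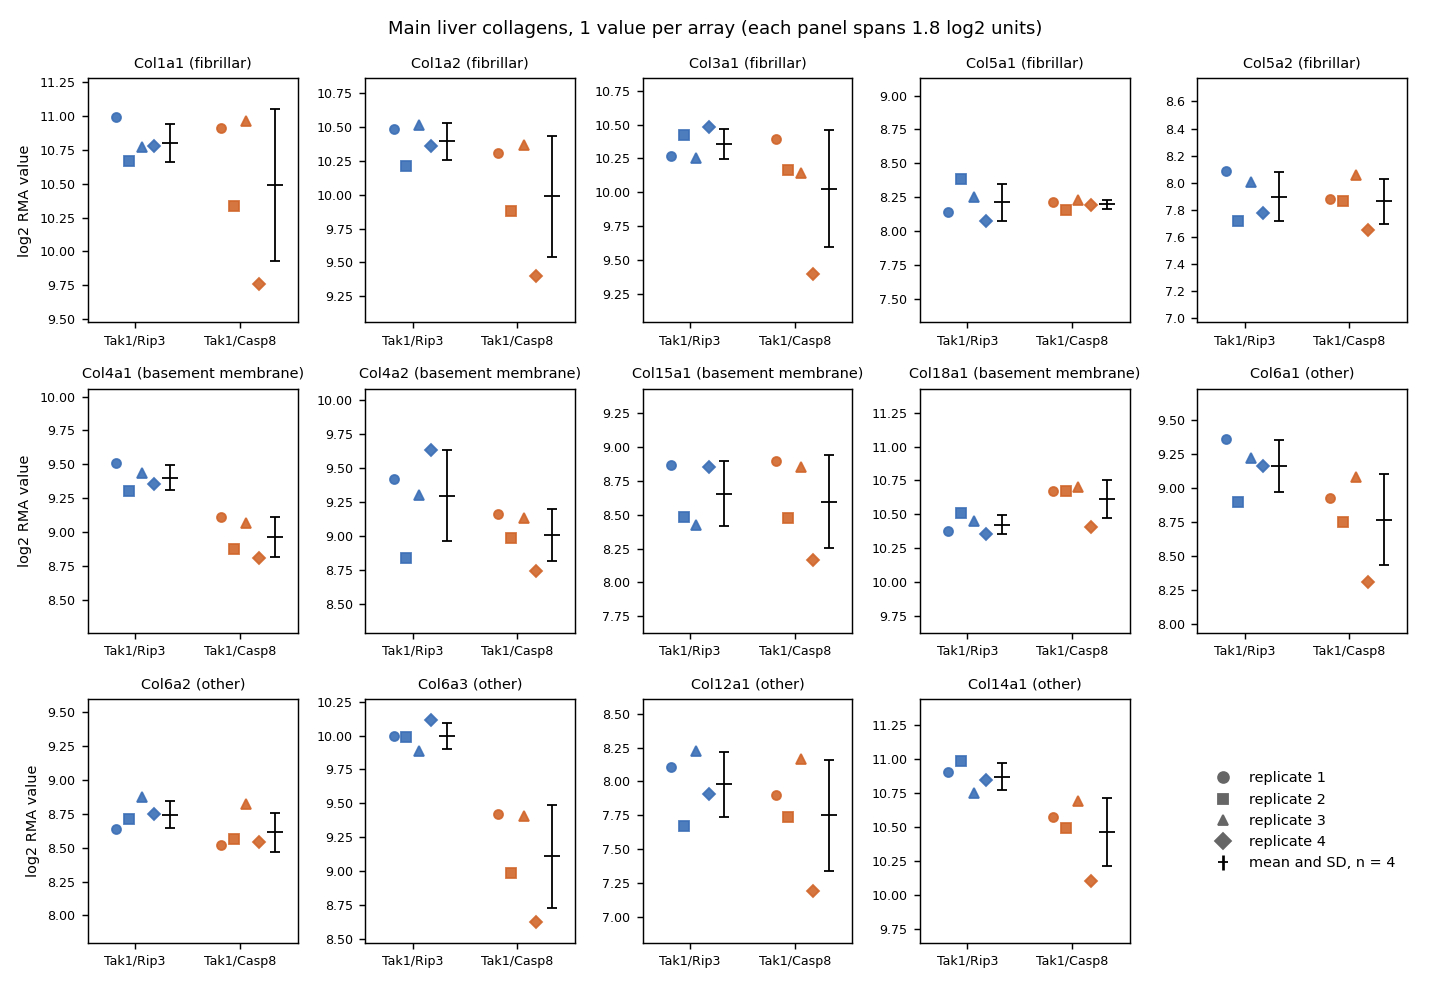
Log2 RMA value of 14 collagens of the liver matrix in each array, with symbols for replicates and bars for the mean and SD (n = 4). For Col6a3, Col4a1 and Col14a1 the groups do not overlap, and for Col1a1, Col1a2 and Col3a1 Tak1/Casp8 replicate 4 lies lowest.

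Fibril-associated collagens decorate the surface of type I fibres. Col14a1, one of them, was 10.91, 10.99, 10.75 and 10.84 in the Tak1/Rip3 livers and 10.57, 10.49, 10.69 and 10.10 in the Tak1/Casp8 livers. The groups did not overlap, although the highest Tak1/Casp8 value (10.69) was close to the lowest Tak1/Rip3 value (10.75). Its difference of -0.41 had a 95% interval of -0.70 to -0.12 and missed the threshold after adjustment (limma adjusted p = 0.0948, n = 4 per group). It was -0.29 without Tak1/Casp8 replicate 4 and -0.07 with the brightest probe set (limma adjusted p = 0.842). Groups did not overlap in 3 collagens (Col6a3, Col4a1 and Col14a1), against 14.6% of all genes. These 3 were lower, against 8.30% of all genes, and 0 were higher, against 6.33%.

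Col12a1, a relative of Col14a1, was 8.11, 7.67, 8.22 and 7.91 in the Tak1/Rip3 livers and 7.90, 7.74, 8.16 and 7.19 in the Tak1/Casp8 livers. Only Tak1/Casp8 replicate 4 lay outside the range of the other group. The difference was -0.23 (SE 0.20, n = 4 a group, adjusted p by limma = 0.562), -0.04 without that array, -0.37 without Tak1/Casp8 replicate 3 and -0.15 without Tak1/Rip3 replicate 3. The 7 other fibril-associated collagens, Col9a1, Col9a2, Col9a3, Col16a1, Col19a1, Col20a1 and Col22a1, differed by -0.13 to 0.18.

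Of the other classes no member passed. Among the transmembrane collagens Col17a1, a part of the junction of skin epithelium with its basement membrane, differed by 0.26 (95% interval 0.02 to 0.49, limma adjusted p = 0.192) and Col25a1 by 0.23. Col13a1 and Col23a1 differed by -0.06 and 0.13. Col7a1, the anchoring fibril of skin, differed by 0.09, and Col28a1 by 0.16. The network-forming Col8a1, Col8a2 and Col10a1 differed by 0.00, -0.01 and 0.16. Col10a1, Col19a1, Col28a1 and Col4a6 were the 4 collagens with both group means below the lower quartile of probe sets.

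Single probe sets show how evenly a difference runs over a transcript. Of the 47 probe sets of Col6a3, 45 were lower in the Tak1/Casp8 livers and 11 passed a limma test over all 206316 probe sets, of which 1.64% passed and 1.11% passed with lower values. The middle of the Col6a3 probe sets lay at -0.93. For Col14a1 46 of 47 were lower and for Col1a1 and Col1a2 48 of 52 each, yet none of these passed in limma, with 17, 0 and 0 at an unadjusted p under 0.05. Probe sets of a gene share arrays and RNA, so such counts do not add replicates. Of the 51 probe sets of Col4a1, 40 were lower and none passed, with 15 lower and 1 higher at an unadjusted p under 0.05. Of the 48 of Col4a2, 42 were lower and 1 passed. Col18a1 went the other way, with 4 of 43 lower and 1 called higher, which differed by 1.00. Over all 40 collagens 947 of 1854 probe sets were lower, against 49.7% of all probe sets.

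**Figure D3:**
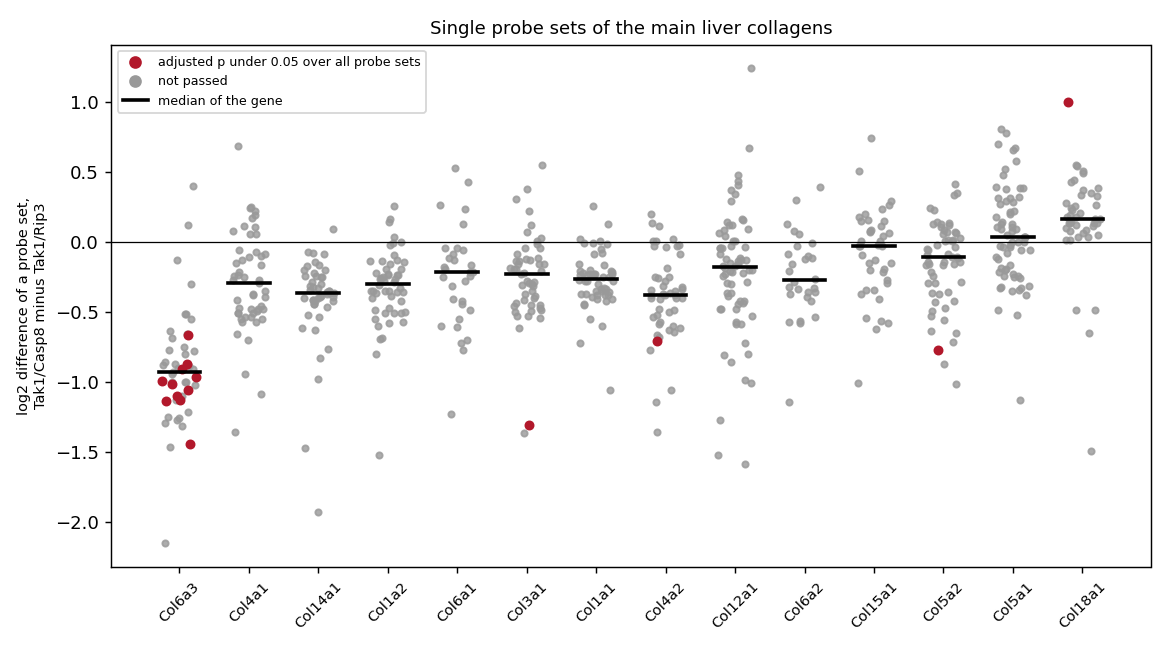
Log2 difference of every probe set of the 14 main liver collagens, ordered by the difference of the gene, with the median as a line and red points for an adjusted p under 0.05. Red points are 11 of 47 for Col6a3 and 0 of 52 for Col1a1.

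The 14 main liver collagens were Col1a1, Col1a2, Col3a1, Col5a1, Col5a2, Col4a1, Col4a2, Col15a1, Col18a1, Col6a1, Col6a2, Col6a3, Col12a1 and Col14a1. Like the other lists, they were chosen with earlier results of these data known. Of the 14, 13 had negative differences, against 47.4% of all genes. Their median was -0.30, and -0.12 without Tak1/Casp8 replicate 4. That array had the lowest of the 8 values in 11 of the 14, and in 2553 of all 19560 genes. The mean deviation of the 14 from each gene's mean over the 8 arrays was 0.20, 0.03, 0.15 and 0.15 in the Tak1/Rip3 livers and 0.04, -0.17, 0.10 and -0.50 in the Tak1/Casp8 livers. Tak1/Casp8 replicates 1 and 3 thus lay within the range of the other group, replicate 2 below it and replicate 4 well below. The 26 other collagens ran the other way in the same array: it had the highest of the 8 values in 10 of them, and in 4812 of all 19560 genes. Opposite movement was seen in Tak1/Rip3 replicate 1 too. It had the lowest of the 8 values in 13 of the 26, and in 2736 of all 19560 genes. Its mean deviation was -0.14 over the 26 and 0.20 over the 14.

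Markers of the cells that make collagen were read in the same arrays. In bulk liver RNA fewer cells of a type and less RNA per cell cannot be told apart. The 12 stellate cell markers had a summed level (log2 of the summed linear values) of 12.79 to 13.22 in the Tak1/Casp8 livers and 13.24 to 13.35 in the Tak1/Rip3 livers. Of them 8 had negative and 4 positive differences. Limma called 3 lower, Lrat (-0.59), Reln (-0.65) and Hand2 (-0.75), and 1 higher, Colec11 (0.39). Over all genes 4.05% were called lower and 2.64% higher, which is the background for the counts of each marker list. The defining markers Gfap and Hhip lay below the lower quartile in both groups. Of 7 myofibroblast markers Myl9 (-1.12) and Tpm2 (-0.49) were called lower, while the smooth muscle actin Acta2 differed by -0.95 without passing (limma adjusted p = 0.116). Their summed level was 10.66 to 11.47 against 11.19 to 12.39, with Acta2 as its largest part (mean 10.09 against 11.03).

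Of 8 portal fibroblast markers 5 had negative and 3 positive differences. Elastin, Eln (-1.05), and Mfap4 (-1.43), both themselves matrix genes, were called lower. The largest positive difference was that of Gas6 (0.46, limma adjusted p = 0.0927). The summed level of the list was 11.89 to 12.54 against 12.35 to 12.82. The mean deviation of the portal fibroblast markers was lowest in Tak1/Casp8 replicate 4 (-0.53), as was that of the myofibroblast markers (-0.59). For the stellate cell markers the mean deviation was lowest in replicate 2 (-0.28) and the summed level in replicate 4 (12.79). None of 8 hepatocyte markers was called (1 at an unadjusted p under 0.05, and 0 at an adjusted p under 0.05), with a summed level of 16.43 to 16.46 against 16.38 to 16.47. Of 10 sinusoidal endothelial markers 1 was called, higher, and of 7 vascular ones 0, with summed levels of 13.62 to 13.78 against 13.36 to 13.60 and of 12.39 to 12.76 against 12.41 to 12.69. Of 6 bile duct markers 4 had negative differences, with a median of -0.17, among them Epcam (-1.05, limma adjusted p = 0.0651). Limma called 1, the secreted protein osteopontin, Spp1, higher by 0.97. The summed level of the list, 12.99 to 13.74 against 12.39 to 12.96, was carried by Spp1 (mean 13.17 against 12.20). The part of these cell markers in the collagen differences was not tested.

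**Figure D4:**
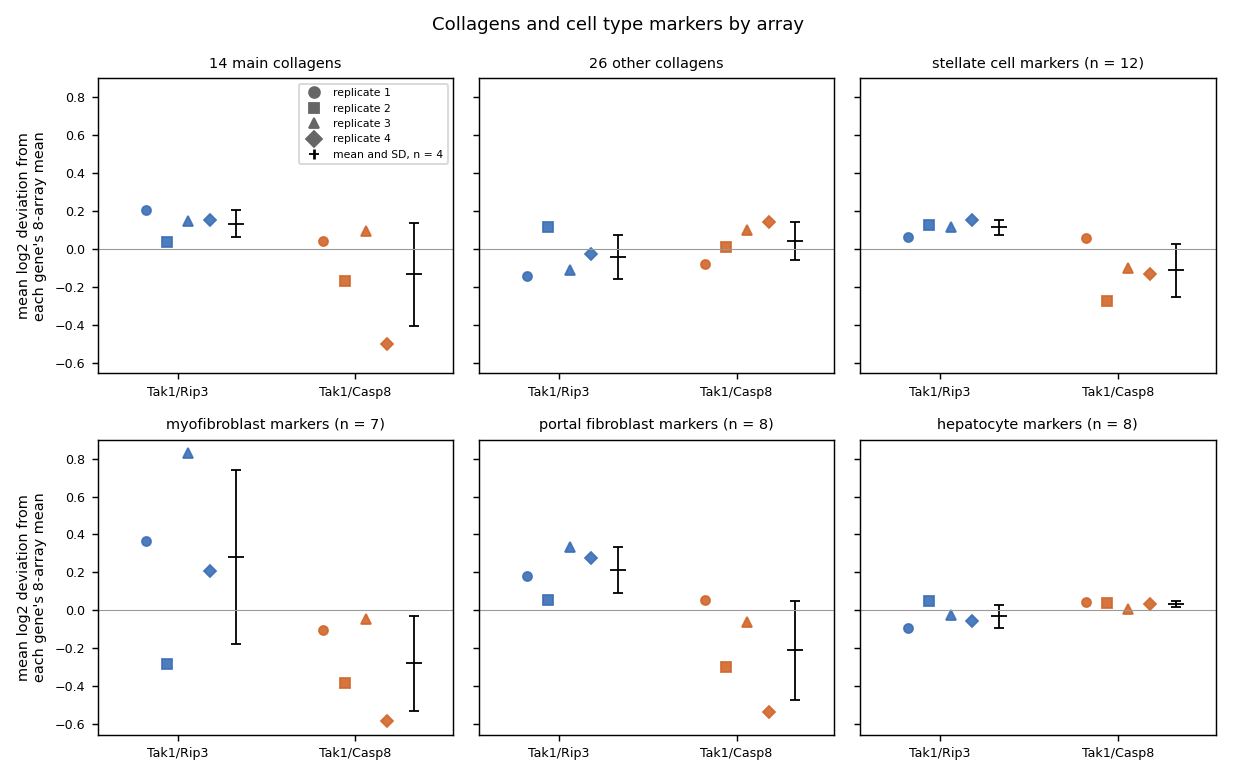
Mean log2 deviation from each gene's mean over 8 arrays, by array, for the 14 main collagens, the 26 other collagens and markers of 4 cell types, with bars for the mean and SD (n = 4). Tak1/Casp8 replicate 4 lies at -0.50 for the main collagens and at 0.14 for the others.

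The genes that fold, secrete, join, bind and degrade collagen gave 7 calls among 58 measured, with 6 lower and 1 higher in Tak1/Casp8, against 4.05% and 2.64% of all genes. Of 17 folding and modification genes, P4ha2, a prolyl hydroxylase subunit needed for a stable helix, was 1.54-fold higher (0.62 ± 0.11 SE, n = 4 a group, adjusted p by limma = 0.00819), and Colgalt2, a collagen galactosyltransferase, was lower by -0.42 at a level below the lower quartile in both groups. The collagen chaperone Serpinh1 differed by 0.60 without passing (adjusted p = 0.0867). With its brightest probe set P4ha2 differed by 0.21 (adjusted p = 0.486). The Colgalt2 call was lost with the brightest probe set and without Tak1/Casp8 replicate 1 or 2 or Tak1/Rip3 replicate 1 (adjusted p = 0.0534 to 0.147).

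None of 10 genes of secretion and propeptide removal passed in limma, with 1 at an unadjusted p under 0.05: Pcolce, which enhances removal of the C-propeptide (-0.56, adjusted p = 0.0634). Adamts3, a propeptide peptidase, differed by -0.21 and Pcolce2 by 0.33. None of the 5 lysyl oxidases, which cross-link fibres, passed (3 at an unadjusted p under 0.05, against 21.1% of all genes). All 5 differences were negative, from -0.34 to -0.49, among them Loxl3 (-0.37, adjusted p = 0.133), Loxl2 (-0.34) and Loxl1 (-0.49). With unmoderated variances, separate for each group, 1 of the 58 genes passed, the dim Colgalt2 (adjusted p = 0.0498). Every other call among the 58 was lost in that setting.

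Of 7 small proteoglycans that bind fibrils Ogn, osteoglycin, was 2.32-fold lower (-1.22 ± 0.14 SE, n = 4 a group, adjusted p by limma = 0.00125). Its Tak1/Casp8 mean of 6.67 lay near the lower quartile (6.55 to 6.61), so its fold is uncertain. Ogn passed under each omission of 1 array, but not with unmoderated variances (adjusted p = 0.0655). Fibromodulin, Fmod (-0.96, adjusted p = 0.0684), and asporin, Aspn (-0.74, adjusted p = 0.0541, at a level below the lower quartile), did not pass. Dcn and Bgn, decorin and biglycan, differed by -0.19 and -0.23. The groups did not overlap in 4 of the 7, Ogn, Fmod, Aspn and Dcn, all lower, against 8.30% of all genes in that direction. Of 9 receptors 1 passed, the collagen-binding kinase Ddr2, 1.36-fold lower (-0.45 ± 0.10). The call of Ddr2 was lost without any 1 of 6 arrays, all but Tak1/Casp8 replicate 1 and Tak1/Rip3 replicate 2 (adjusted p up to 0.0919). The uptake receptor Mrc2 differed by -0.67 (adjusted p = 0.0943) and the integrin chain Itga2 by 0.50.

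Of 10 genes of collagen breakdown 6 had negative and 4 positive differences, and 3 passed, all lower. The collagenase Mmp13 was 3.59-fold lower (-1.84 ± 0.21 SE, n = 4 a group, adjusted p by limma = 0.00115), with a Tak1/Casp8 mean of 6.51, below the lower quartile, so its fold is uncertain. The inhibitor Timp3 was 1.97-fold lower (adjusted p = 0.0265) and the gelatinase Mmp2 1.90-fold (adjusted p = 0.0447). The Timp3 call was lost without Tak1/Casp8 replicate 2 or any 1 Tak1/Rip3 array (adjusted p = 0.0514 to 0.0764). The Mmp2 call was lost without Tak1/Casp8 replicate 2 or 4 or any 1 Tak1/Rip3 array (0.0512 to 0.117), and with the brightest probe set Mmp2 differed by -0.17. Timp1, the inhibitor known to rise in liver scarring, differed by 0.80 in the other direction and did not pass (SE 0.37, adjusted p = 0.247). Its values were 10.94, 10.26, 10.38 and 8.87 in the Tak1/Casp8 livers, against 8.79 to 9.57 in the Tak1/Rip3 livers. Tak1/Casp8 replicates 1 to 3 thus lay above all Tak1/Rip3 arrays and replicate 4 among them. Mmp9 was higher by 0.52 and did not pass either (limma adjusted p = 0.0696).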

How the data were processed

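The deposited log2 values per probe set, made with RMA by the authors according to the submitters' processing notes, were used unchanged. RMA aligns array distributions and compresses small differences near background. Array number, not depth, limits precision. The platform annotation gave a single symbol for 206316 of 223771 probe sets, and only these were used. Old symbols (2571) were updated through a RefSeq gene table. Each gene and array took the median over those probe sets (19560 genes, no filter), and 2 probe sets shared by a collagen and another gene were left out. Groups came from the genotype label. The comparison used limma 3.58.1 (lmFit, eBayes, two-sided) in R 4.3.3 with Benjamini-Hochberg adjustment over all genes. It was tried on simulated data with independent normal noise, the same spread in both groups and no deviating array. That simulation cannot show how the comparison behaves with a deviating array or with unequal spread. Figures used matplotlib 3.10.9.

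The members, classes and gene lists were chosen with earlier results of these data known. The text names 14 main liver collagens, every called collagen, the 2 largest differences of each class and up to 3 members of each other list with the smallest adjusted p. Further members were named after their values were seen. The alternatives varied the scaling, the summary of probe sets, a filter on dim genes (percentile 30 or 50), the variance model and array weights, left out genes near the deleted loci, or left out 1 array. Leaving out Tak1/Casp8 replicate 4 together with Tak1/Rip3 replicate 2 was added after seeing the data.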

Additional observations from a re-analysis of the deposited data

Results flagged for a closer look

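In 3 of 80 combinations of a collagen and a group, 1 array lay far from the other 3 by Dixon's test, and chance flags about 1 in 20. Col18a1 in Tak1/Casp8 replicate 4 was 10.40, against 10.67 to 10.70 in the rest of the group. Col6a2 in Tak1/Casp8 replicate 3 was 8.82, against 8.52 to 8.56. Col22a1 in Tak1/Rip3 replicate 2 was 7.29, against 6.88 to 6.89. Without the array concerned Col18a1 differed by 0.26 (adjusted p = 0.121) and Col6a2 by -0.20, and neither passed.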

How the results depend on the processing

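The call of Col6a3 was lost in 1 of 21 alternatives (unmoderated variances, adjusted p = 0.170) and that of Col4a1 in 10, all with the same direction. The collagens called lower were 1 with arrays shifted to 1 median and with the mean, brightest or brighter probe sets, 0 with unmoderated variances, and 1 to 2 on omission of 1 array. Those of the basement membrane were 0 in the same 5 settings and 0 to 1 on omission of 1 array, and the other types 0 with unmoderated variances. With the brightest probe sets 2 collagens were called higher. The 58 pathway genes gave 4 calls with the brightest probe sets, 14 with the mean, 1 with unmoderated variances and 3 to 9 on omission of 1 array. All genes gave 759 with the brightest probe sets, 115 with unmoderated variances and 706 to 1347 on omission of 1 array. Fibrillar collagens called lower stayed at 0 in each alternative. Over the 21 alternatives the median difference ranged from -0.08 to 0.22 for fibrillar, -0.18 to 0.03 for basement membrane and -0.13 to 0.11 for other collagens.

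Differences near 0 changed sign without passing. Col15a1 was 0.0119 with shifted arrays, 0.0643 with the brightest probe set, 0.0265 without both of the least correlated arrays and -0.159 to 0.0838 on omission of 1. Col5a1 was 0.0217 with array weights, 0.0576 with shifted arrays, 0.0492 with the mean, 0.050 with quantile normalisation, 0.0447 without both arrays and -0.0608 to 0.042 on omission of 1. Col5a2 was 0.036 with shifted arrays, 0.0357 with quantile normalisation and -0.0994 to 0.0348 on omission of 1. Col8a2 was 0.0214 with array weights, 0.0654 with shifted arrays, 0.187 with the brighter and 0.411 with the brightest probe sets, 0.138 with the mean, 0.0431 with quantile normalisation, 0.0315 without both arrays and -0.0901 to 0.115 on omission of 1. The cause of these changes was not tested. No paired analysis was possible because the replicate numbers only name the arrays. No collagen lies within 10 Mb of the targeted loci, and dim genes have compressed differences.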

Other observations

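In the platform annotation 4 further collagens carry other symbols and so fall outside the family as defined by symbol. Col6a6, a chain of type VI, was lower in all 4 Tak1/Casp8 livers than in any Tak1/Rip3 liver, at 7.47 ± 0.14 (SD, n = 4) against 7.85 ± 0.12. Its difference of -0.38 did not pass (limma adjusted p = 0.0604). Col6a5 differed by -0.37 (adjusted p = 0.450), Col6a4, from 4 probe sets and below the lower quartile, by 0.08, and Col26a1 by 0.23. Limma called 0 of the 4, with Col6a6 at an unadjusted p under 0.05.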
